A study of Homo sapiens and Mus musculus with 16 samples.

Results

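The centrosome and cilium transport genes are the genes whose symbols begin with CEP, IFT or BBS followed by a number. They were found by symbol alone, without regard to any measured value. The rule returned 58 of 22286 genes in the human table (36 CEP, 14 IFT and 8 BBS genes) and 57 of 15881 genes in the mouse table (35, 14 and 8), and 57 symbols occurred in both. The gene found in the human table only was CEP170P1, a pseudogene copy of CEP170 whose reads cannot be told apart with certainty from those of CEP170. The measurement was P-body-seq, in which particles marked by GFP-LSM14A are sorted from lysed cells and their RNA is sequenced beside that of the cytoplasm from which they were sorted. It covered 16 libraries from 4 cell types, with 2 P-body and 2 cytoplasm libraries in each. HEK293T is a human embryonic kidney line, here carrying LSM14a-GFP from a lentiviral vector, and the mouse embryonic stem cells (mESC) were the line KH2 with LSM14a-GFP, grown in serum and LIF. The liver bud progenitors and the neurons at day 20 were differentiated from UCLA4 human embryonic stem cells that carried LSM14a-GFP at the AAVS1 locus. All libraries thus carried the fusion, each cell type came from a single line, and no group was treated otherwise. The HEK293T and mESC libraries were labelled total RNA and made by the Snap seq protocol, and the other libraries were labelled polyA RNA, so cell type and library type cannot be told apart between them.

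Centrosomes are built around a pair of centrioles, and most CEP proteins duplicate the centrioles, fix their length, recruit the surrounding matrix or decorate the older centriole with the appendages that dock it at the membrane. A docked centriole is the base of the primary cilium. Intraflagellar transport (IFT) trains carry cargo along the cilium, IFT-B towards the tip with kinesin and IFT-A back with dynein, and the BBSome, a coat of BBS proteins, moves membrane proteins on these trains. P-bodies are cytoplasmic condensates of RNA and protein that hold mRNAs outside of translation.

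The messages shown here, from the ends of the order, differed in base composition over the whole coding sequence. The first 90 bases of the coding sequence, from the start codon on, are shown for the 2 members with the highest and the 2 with the lowest mean log2 change (P-body over cytoplasm, averaged over the human cell types) among the 38 members with a mean of at least 10 CPM (counts relative to the library total) in each of the 3 human cell types. They are the longest coding transcripts of GENCODE 44 on hg38, and capitals mark G or C at the third position of each codon. CEP135, which helps to build the cartwheel and wall of new centrioles, lies on chr4:55948871-56033361 (plus strand) with a mean log2 change of 1.62. CEP97, which caps centrioles together with CCP110, lies on chr3:101724534-101770562 (plus strand) with 1.49. CEP170B, a paralogue of CEP170, lies on chr14:104865268-104896747 (plus strand) with -1.30. CEP164, a distal appendage protein, lies on chr11:117314557-117413266 (plus strand) with -0.76.
CEP135: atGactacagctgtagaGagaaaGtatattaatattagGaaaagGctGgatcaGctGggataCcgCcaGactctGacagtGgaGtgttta
CEP97: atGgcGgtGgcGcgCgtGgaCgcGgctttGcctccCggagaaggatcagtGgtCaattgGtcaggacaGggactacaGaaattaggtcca
CEP170B: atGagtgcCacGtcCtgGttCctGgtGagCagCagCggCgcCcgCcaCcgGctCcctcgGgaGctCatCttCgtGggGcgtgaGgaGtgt
CEP164: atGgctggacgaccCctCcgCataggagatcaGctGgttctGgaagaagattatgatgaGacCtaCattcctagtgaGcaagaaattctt
Over the 30 codons shown, G or C stood at the third position in 14 for CEP135, 15 for CEP97, 26 for CEP170B and 11 for CEP164. Over the whole coding sequence the share (GC3) was 31.1%, 36.8%, 79.3% and 65.5%, so the stretch shown does not separate CEP164 from the enriched genes. IFT52, next above CEP164 at a mean log2 change of -0.760 against -0.762, had a GC3 of 48.7%. A narrow margin thus decided which of them is shown.

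Library totals ran from 6368953 to 17972284 counts, and 3 counts, the detection floor, equalled 0.167 to 0.471 CPM. Spearman's rho between replicates across genes was 0.962 to 0.987 in 7 groups and 0.911 in neuron P-bodies, and over the members alone it was 0.974 to 0.994 in all 8 groups. Ribosomal RNA genes took 3.09% to 13.4% of counts in P-bodies and 9.63% to 24.9% in the cytoplasm. Of the cell type markers, 6 neuronal genes summed to 12121 and 12156 CPM in neuron cytoplasm and to at most 186 in the cytoplasm of the other human cells. Liver genes summed to 402 and 391 CPM in liver bud progenitor cytoplasm, mainly APOB, while AFP stayed at 7.61 and 7.46 CPM, and POU5F1 was still at 81.4 and 79.4 CPM. In mESC the pluripotency list summed to 2023 and 2032 CPM. Markers of multiciliated cells, another source of these messages, summed to at most 7.02 CPM in any library, and FOXJ1 did not exceed 2.93 CPM.

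More of these genes were P-body enriched than depleted in every cell type. In HEK293T 34 of 58 members were enriched and 14 depleted (edgeR quasi-likelihood test, adjusted p under 0.05), whereas 19.3% and 22.8% of all 21903 genes tested were. Liver bud progenitors had 33 enriched and 10 depleted members, beside 21.4% and 17.1% of all genes. Neurons had 24 and 8, beside 14.6% and 14.1%, and mESC had 27 and 4 of 57, beside 25.8% and 20.6%. The median log2 change of the members was 0.52, 0.54, 0.52 and 0.52 in that order, and that of all genes tested was -0.01, -0.09, 0.19 and -0.11. The mESC median was 0.29 without the first P-body library and 0.11 without rescaling beyond library size. Calls are rarer among genes with few reads, so the shares were also taken above a level. Among members with a mean of at least 10 CPM, 33 of 43, 32 of 45, 24 of 44 and 26 of 41 were enriched, beside 44.2%, 47.2%, 27% and 47.8% of all genes at that level. Depletion was called for 6, 6, 8 and 4 of these members, beside 38.3%, 27.8%, 33% and 24.3%. Without rescaling beyond library size the mESC counts became 22 enriched and 16 depleted, while the median of all genes moved by -0.40. In neurons the counts were 26 and 15 when all human libraries were fitted together, and the depleted count was 2 without the first cytoplasm library. Together the members took 0.427% to 0.663% of P-body counts and 0.242% to 0.420% of cytoplasm counts in the human libraries, and CEP350 and CEP170 alone made up 40.2% to 57.2% of their reads in those libraries.

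**Figure D1:**
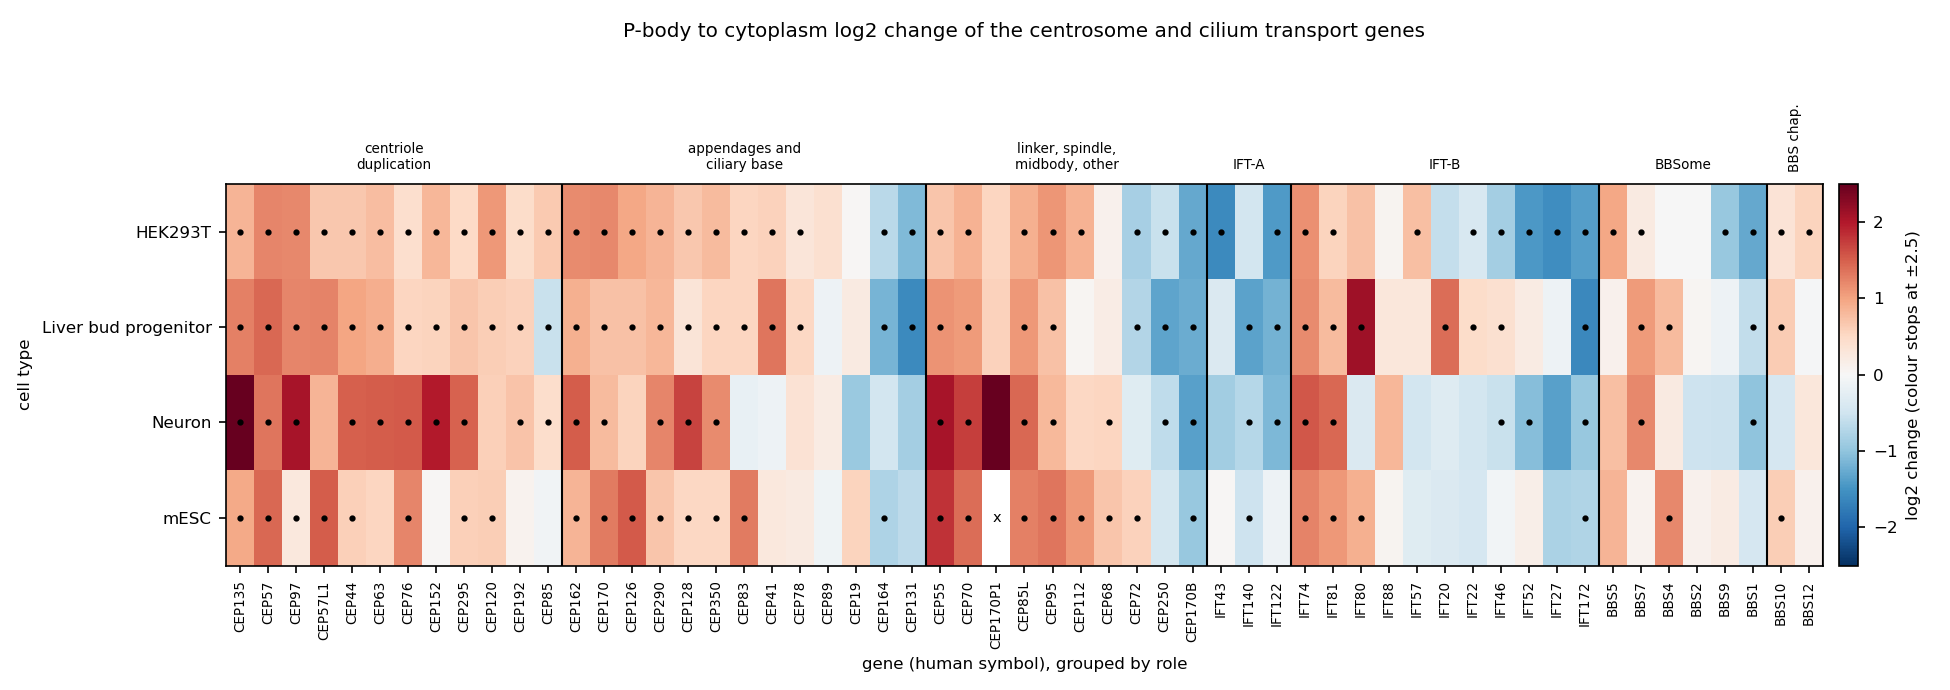
P-body to cytoplasm log2 change of each member (columns, grouped by role and sorted by mean) in each cell type (rows), red for higher in P-bodies, with a dot where edgeR called the change and x where the gene is not in the mouse table. The centriole duplication block is red nearly throughout, and the IFT-A block and the right end of each CEP and IFT-B block are blue.

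Genes of centriole duplication and length were enriched almost as a block. All 12 were enriched in HEK293T, and liver bud progenitors had 11 enriched members and 1 depleted. Neurons had 10 enriched and mESC 8, with none depleted. Among all genes averaging at least 10 CPM, 44.2%, 47.2%, 27% and 47.8% were enriched in HEK293T, liver bud progenitors, neurons and mESC. The same shares, and those for depletion given above, serve for the lists that follow. GC3 of the human genes of the list lay below 50%, except for CEP85 (56.3%). Of all genes at that level with GC3 below 50%, 66.3%, 77.4% and 54.8% were enriched in HEK293T, liver bud progenitors and neurons. The median log2 change of the list was 0.72, 0.81, 1.48 and 0.59 for HEK293T, liver bud progenitors, neurons and mESC. CEP135 gave the largest value of the members called in neurons. HEK293T held 166 and 166 CPM in P-bodies and 95.7 and 87.2 CPM in the cytoplasm, and the liver bud progenitors 142 and 144 against 65.6 and 53.8 CPM. Neuron P-bodies held 92.3 and 106 CPM against 14.2 and 15.6 in the cytoplasm, a log2 change of 2.74 ± 0.16 (SE; adjusted p = 6.53e-08). Beside liver bud progenitors, of the same library type, neurons thus had the lower level in both fractions, with the wider gap in the cytoplasm. The CPM were scaled within each cell type. In mESC the values were 98.1 and 92.3 against 50.6 and 47.8 CPM, and the fractions were apart for this gene in every cell type.

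CEP97 was at 637 and 687 against 299 and 279 CPM in HEK293T, P-bodies first, and at 161 and 184 against 74.1 and 75.1 CPM in liver bud progenitors. Neurons gave 253 and 262 against 58.5 and 65.4 CPM and a log2 change of 2.05 ± 0.11 (adjusted p = 2.57e-08). The gap was far smaller in mESC, with 39.0 and 39.4 against 33.6 and 31.6 CPM and a change of 0.27 ± 0.10 that was lost with DESeq2 and filterByExpr and turned to -0.13 with library size only. CEP57, which with CEP63 and CEP152 forms the ring that recruits the duplication kinase PLK4, was more even over the cell types. Its libraries stood at 333 and 334 against 147 and 139 CPM in HEK293T, 273 and 255 against 98.2 and 96.6 CPM in liver bud progenitors, 63.4 and 72.7 against 23.2 and 30.3 CPM in neurons and 273 and 279 against 106 and 96.8 CPM in mESC, with log2 changes of 1.23, 1.44, 1.35 and 1.44. Its paralogue CEP57L1 was among the highest members in mESC, at 86.9 and 84.9 against 32.1 and 27.9 CPM and a change of 1.52 ± 0.09.

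CEP152, which holds PLK4 at the centriole wall, was at 72.6 and 76.7 against 44.4 and 39.1 CPM in HEK293T, 64.6 and 65.8 against 44.4 and 44.4 CPM in liver bud progenitors and 32.1 and 38.7 against 8.40 and 9.60 CPM in neurons, where the change was 1.97 ± 0.23 (adjusted p = 2.79e-05). In mESC 9.05 and 10.4 against 8.18 and 10.8 CPM overlapped, with a change of 0.04 ± 0.20 that was not called. CEP192, the scaffold of the pericentriolar matrix, showed smaller changes at higher levels. HEK293T had 152 and 157 against 109 and 115 CPM, liver bud progenitors 228 and 229 against 153 and 152 CPM and neurons 121 and 144 against 79.7 and 82.1 CPM, giving 0.46, 0.58 and 0.71, all called. For mESC the values 275 and 266 against 263 and 246 CPM gave 0.09 ± 0.05, which was not called. The other members of the list had log2 changes of 0.42 (CEP76) to 1.09 (CEP120) in HEK293T. CEP85, which activates the kinase step of duplication, was the exception, with 0.66 in HEK293T, -0.56 in liver bud progenitors and 0.44 in neurons, called in each, so that its direction differed between cell types. The neuron call of CEP85 was lost with DESeq2 and with ribosomal RNA genes left out. Cycling cells express this machinery, and of 4 progenitor and cycling markers 3 were higher in neuron P-bodies. TOP2A was at 787 and 841 CPM in neuron P-bodies against 190 and 202 CPM in the cytoplasm, and the log2 change of the list was 2.17 for PAX6, 2.05 for TOP2A, 0.74 for MKI67 and -0.88 for NES. The markers summed to 3091 and 3249 against 1568 and 1624 CPM. Elsewhere the TOP2A change was 0.86 for HEK293T, 0.89 for liver bud progenitors and 0.85 for mESC. That of MKI67 was 0.47, -0.05 and -0.08 in the same order. For PAX6 it was 2.02, -1.28 and 1.74, so a high PAX6 value was not particular to neurons. NES was lower in P-bodies in each of these cell types. The marker sums were higher in P-bodies there too. They were 3607 and 3658 against 2153 and 2207 CPM in HEK293T and 2865 and 2849 against 2542 and 2581 CPM in liver bud progenitors. In mESC they were 4736 and 4661 against 3835 and 3693 CPM. The part of these markers in the neuron values was not tested.

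**Figure D2:**
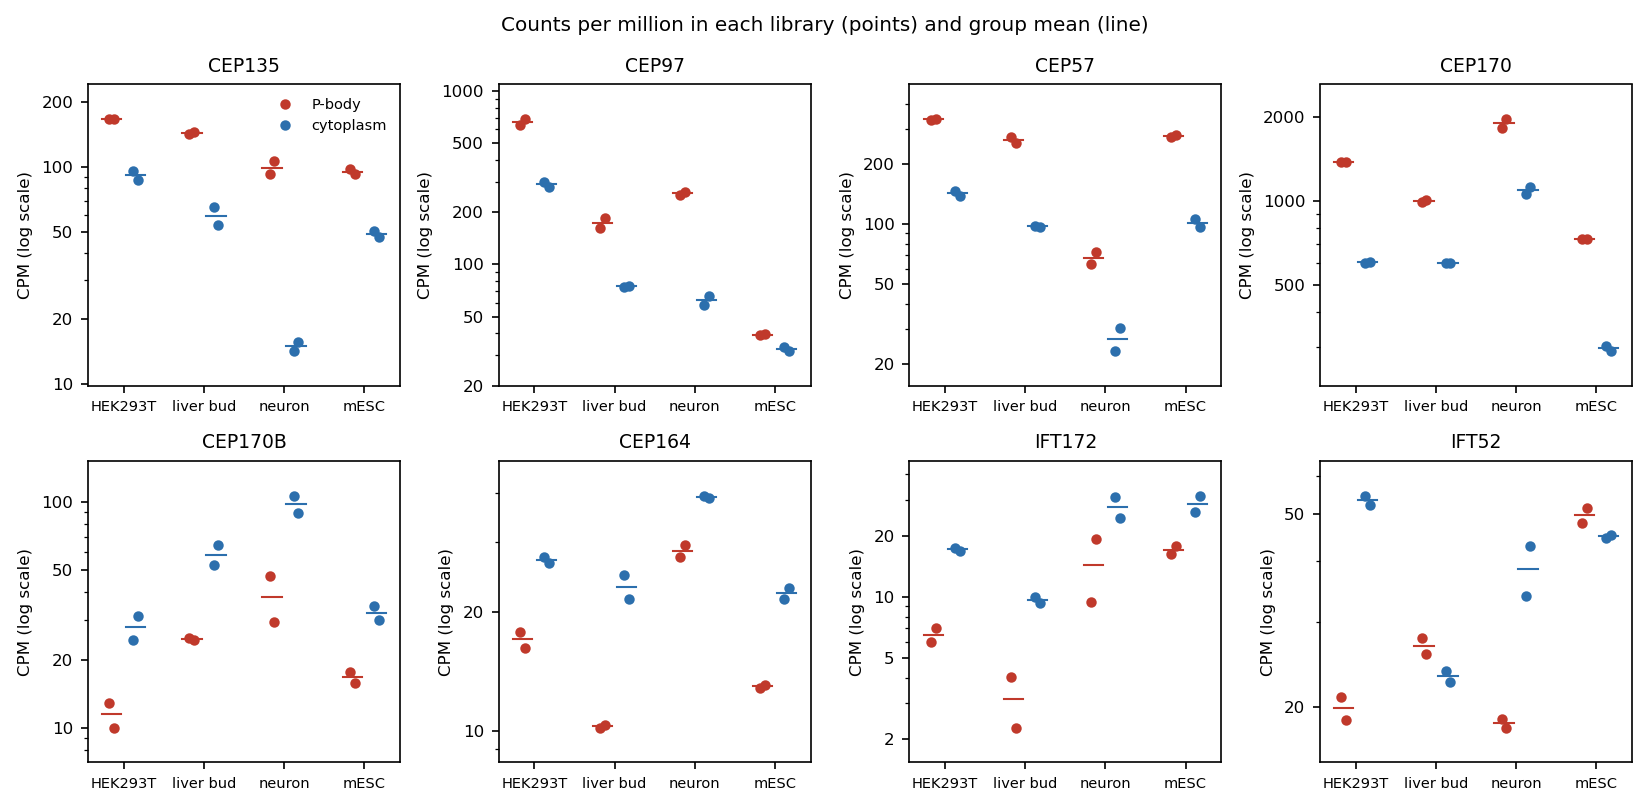
CPM on a log scale in each of the 16 libraries for 8 members, with P-body libraries in red, cytoplasm libraries in blue and a line at each group mean. CEP135, CEP97, CEP57 and CEP170 lie higher in P-bodies in all 4 cell types, CEP170B, CEP164 and IFT172 lie lower, and IFT52 lies lower in HEK293T and neurons only.

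Members of the appendages, the transition zone and the ciliary base split in both directions. Of 14, 10 were enriched and 2 depleted in HEK293T, 9 and 2 in liver bud progenitors, 6 and 0 in neurons and 7 and 1 in mESC, with medians of 0.56, 0.53, 0.46 and 0.52. CEP170, of the subdistal appendages, was the most abundant member per kilobase of transcript in the cytoplasm of each human cell type, at 85.5 CPM per kilobase in HEK293T, 85.0 in liver bud progenitors and 155 in neurons. Its libraries stood at 1388 and 1389 against 602 and 605 CPM in HEK293T, 990.2 and 1011 against 599 and 601 CPM in liver bud progenitors, 1836 and 1970 against 1064 and 1129 CPM in neurons and 730.4 and 729.5 against 303 and 289.7 CPM in mESC. The log2 changes were 1.20 ± 0.05, 0.74 ± 0.05, 0.80 ± 0.07 and 1.30 ± 0.04, and P-bodies lay above the cytoplasm in all libraries. CEP350, a large protein of the centriole that binds CEP19, was at 1768 and 1764 against 1017 and 1013 CPM, 971 and 973 against 685 and 652 CPM, 644 and 691 against 282 and 308 CPM and 354 and 354 against 241 and 253 CPM in the same order, with changes of 0.80, 0.54, 1.18 and 0.52, all called.

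CEP290, which bridges membrane and microtubules at the transition zone, was enriched in all cell types. HEK293T had 129 and 140.4 against 79.1 and 70.3 CPM and liver bud progenitors 48.6 and 46.7 against 25.9 and 27.4 CPM. Neurons had 43.6 and 47.3 against 16.7 and 22.4 CPM and mESC 59.4 and 57.9 against 36.8 and 35.7 CPM, and the changes were 0.85, 0.83, 1.22 and 0.69. CEP162, which ties the transition zone to the axoneme, was at 112 and 126 against 52.2 and 52.1 CPM in HEK293T, a change of 1.19 ± 0.08. CEP126 in mESC was at 43.7 and 44.1 against 17.5 and 12.8 CPM, a change of 1.53 ± 0.13, and in the human cells it was called in HEK293T (0.97) and liver bud progenitors (0.73).

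The distal appendage gene CEP164, required for docking, went the other way. It was at 17.8 and 16.2 against 27.5 and 26.6 CPM in HEK293T, 10.2 and 10.4 against 24.7 and 21.5 CPM in liver bud progenitors and 12.9 and 13.1 against 21.6 and 23.0 CPM in mESC, with changes of -0.67 ± 0.14, -1.17 ± 0.18 and -0.78 ± 0.15, all called. The neuron libraries at 27.5 and 29.5 against 39.3 and 38.7 CPM did not overlap either, but the change of -0.45 ± 0.18 missed the threshold (adjusted p = 0.0747). CEP83, which forms the base of the appendage, had log2 changes of 0.54, 0.54 and 1.30 in HEK293T, liver bud progenitors and mESC, all called, and -0.18 in neurons, while CEP89, also of the distal appendage, was called nowhere and lay between -0.12 and 0.40. CEP131, a protein of the centriolar satellites, was scarce. It was at 0.686 and 1.51 against 2.57 and 2.21 CPM in HEK293T and 1.57 and 1.14 against 4.39 and 3.79 CPM in liver bud progenitors, called depleted with -1.10 and -1.59. Neurons gave 4.96 and 4.85 against 7.93 and 9.70 CPM and mESC 2.46 and 1.90 against 3.61 and 3.32 CPM, with uncalled changes of -0.84 ± 0.39 and -0.66 ± 0.33. The HEK293T call of CEP131 was lost with RLE size factors, DESeq2, filterByExpr and the single human fit. CEP41, which acts in tubulin polyglutamylation of the cilium, was at 11.8 and 18.1 against 6.30 and 5.57 CPM in liver bud progenitors (1.34 ± 0.24).

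The remaining CEP genes, of the linker between centrioles, the spindle, the midbody and others, held CEP55 and CEP170B at opposite ends. In HEK293T 5 of 10 were enriched and 3 depleted, in liver bud progenitors 4 and 3, in neurons 5 and 2, and in mESC 7 and 1 of 9. CEP55, which organises the midbody for the final cut of cell division, was the highest member called in mESC. There it was at 1116 and 1068 against 319 and 308 CPM, a log2 change of 1.80 ± 0.04 (adjusted p = 7.51e-21), and it was the most abundant member per kilobase in mESC cytoplasm, at 114 CPM per kilobase. HEK293T had 213 and 216 against 137 and 129.6 CPM, liver bud progenitors 88.1 and 83.8 against 38.8 and 40.0 CPM and neurons 46.9 and 38.9 against 9.16 and 11.5 CPM, with changes of 0.68, 1.12 and 2.05 ± 0.22. The neuron cytoplasm was again below that of liver bud progenitors, and the P-body libraries lay above the cytoplasm everywhere.

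CEP170B was depleted in all 4 cell types. It was at 12.96 and 10.04 against 24.4 and 31.3 CPM in HEK293T, 25.0 and 24.4 against 52.6 and 64.1 CPM in liver bud progenitors, 46.9 and 29.3 against 106 and 89.3 CPM in neurons and 17.7 and 15.8 against 34.8 and 29.9 CPM in mESC. The log2 changes were -1.28 ± 0.15, -1.24 ± 0.12, -1.36 ± 0.20 and -0.95 ± 0.13, all called, opposite to its paralogue CEP170 in every cell type. CEP250, the linker protein C-Nap1, was called depleted in the human cells, a call that was lost in HEK293T with RLE size factors, DESeq2, filterByExpr and the single human fit. Its liver bud libraries were at 11.1 and 7.66 against 19.6 and 27.1 CPM (-1.33 ± 0.19), and its changes elsewhere were -0.56 in HEK293T, -0.63 in neurons and, not called, -0.44 in mESC. CEP68, which joins the same linker, was called enriched in neurons (0.54) and mESC (0.70). CEP72 was called in both directions, at -0.82 in HEK293T and -0.74 in liver bud progenitors against 0.57 in mESC. The pseudogene CEP170P1 never exceeded 1.24 CPM and was called nowhere.

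The 3 IFT-A genes with an IFT symbol, which carry cargo back from the tip, included no enriched member in any cell type. Among IFT-A subunits under other names, TTC21B was enriched in HEK293T (0.50), liver bud progenitors (0.86) and neurons (1.39), and WDR19 was enriched in HEK293T (0.55) and mESC (0.72) but depleted in liver bud progenitors (-0.47) and neurons (-1.15). Of IFT43, IFT122 and IFT140, 2 were called depleted in each human cell type and 1 in mESC. IFT140 was at 1.92 and 2.32 against 3.05 and 2.81 CPM in HEK293T, where -0.46 ± 0.34 was not called. In liver bud progenitors it was at 3.48 and 2.69 against 7.32 and 8.35 CPM, in neurons at 13.5 and 17.6 against 27.9 and 23.2 CPM and in mESC at 13.5 and 11.3 against 18.3 and 17.3 CPM, with changes of -1.35 ± 0.31, -0.71 ± 0.24 and -0.52 ± 0.16, all called and all without overlap. The neuron call was lost with RLE size factors, library size only, DESeq2 and filterByExpr. IFT122 was at 6.73 and 9.11 against 19.9 and 16.4 CPM in liver bud progenitors and 13.2 and 10.9 against 28.6 and 24.2 CPM in neurons, changes of -1.19 ± 0.21 and -1.13 ± 0.24, and its HEK293T change was -1.41. IFT43, at a mean below 10 CPM in each cell type, was called in HEK293T only (-1.58), and 52944 bases of its locus overlap TTLL5 on the same strand.

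The IFT-B genes, which carry cargo to the tip, did not move as a block. Of 11, 3 were enriched and 5 depleted in HEK293T, 6 and 1 in liver bud progenitors, 2 and 3 in neurons and 3 and 1 in mESC, and the median log2 change was -0.39, 0.41, -0.46 and -0.07. The HEK293T median was -0.66 without the first P-body library and -0.15 without the second, and the neuron median -0.23 and -0.75. IFT74 and IFT81, which together bind tubulin, were enriched in all 4 cell types. IFT74 had log2 changes of 1.15, 1.19, 1.54 and 1.24 and IFT81 of 0.57, 0.80, 1.44 and 1.08. IFT172, the largest IFT-B subunit, was depleted in all 4. It was at 6.03 and 7.02 against 17.4 and 16.9 CPM in HEK293T, 4.04 and 2.28 against 9.96 and 9.36 CPM in liver bud progenitors, 9.49 and 19.3 against 31.1 and 24.4 CPM in neurons and 16.3 and 17.7 against 26.0 and 31.4 CPM in mESC, with changes of -1.38 ± 0.18, -1.62 ± 0.30, -0.94 ± 0.30 and -0.76 ± 0.14. P-bodies lay below the cytoplasm in every cell type, but the neuron call was lost with library size only, DESeq2 and filterByExpr.

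IFT52, which anchors the IFT-B core, was depleted in HEK293T, at 21.0 and 18.7 against 54.6 and 52.3 CPM (-1.43 ± 0.12), and in neurons, at 18.9 and 18.1 against 33.9 and 43.1 CPM (-1.06 ± 0.21). Its change was 0.21 in liver bud progenitors and 0.14 in mESC, neither called. IFT46, its partner in the core, was at 74.2 and 75.9 against 133 and 138 CPM in HEK293T (-0.85 ± 0.07) and called enriched in liver bud progenitors (0.41) but depleted in neurons (-0.55), both of which were lost with library size only, DESeq2 and filterByExpr. Several IFT-B genes were scarce. IFT88, a core subunit needed to build cilia, was at 2.95 and 3.77 against 3.05 and 3.40 CPM, 4.37 and 3.52 against 3.22 and 3.29 CPM, 3.53 and 4.25 against 2.36 and 2.0 CPM and 12.49 and 12.1 against 10.5 and 13.1 CPM in HEK293T, liver bud progenitors, neurons and mESC, and none of its changes was called. IFT20, which links the Golgi to the cilium, was at 2.54 and 1.51 against 2.81 and 3.23 CPM, 4.37 and 2.80 against 1.32 and 1.39 CPM, 0.772 and 1.78 against 1.89 and 1.30 CPM and 3.34 and 1.90 against 4.04 and 2.80 CPM, called in liver bud progenitors only (1.39 ± 0.46). IFT27, a small GTPase, was at 1.03 and 1.68 against 4.58 and 3.49 CPM, 4.37 and 2.80 against 4.39 and 3.41 CPM, 1.103 and 2.18 against 4.91 and 3.6 CPM and 1.77 and 1.16 against 2.87 and 2.28 CPM, called in HEK293T only (-1.55 ± 0.35).

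IFT80 needs its own account because the human table also lists the read-through transcript TRIM59-IFT80, which contains IFT80. IFT80 counts in HEK293T were 41 and 59 in P-bodies and 46 and 0 in the cytoplasm, and those of TRIM59-IFT80 were 640 and 693 against 263 and 322. In liver bud progenitors IFT80 was at 18.1 and 18.0 against 4.39 and 3.92 CPM, the largest change of a member in that cell type (2.12 ± 0.23). Neurons gave 2.87 and 3.46 against 2.64 and 5.50 CPM, which did not pass the test, while TRIM59-IFT80 rose there by 2.21 ± 0.31. With the reads of both symbols added, the log2 change was 0.79 ± 0.11 in HEK293T, 1.45 ± 0.10 in liver bud progenitors and 1.46 ± 0.29 in neurons, all called, so the values under IFT80 alone depend on how reads were shared between the symbols. Mouse Ift80 had a change of 0.89 ± 0.08, also called.

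BBSome subunits with a BBS symbol were divided. Of 6, 2 were enriched and 2 depleted in HEK293T, 2 and 1 in liver bud progenitors, 1 and 1 in neurons and 1 and 0 in mESC, and the sign of their median changed with the scaling in each cell type. BBS1, the subunit that binds the membrane GTPase ARL6, was at 1.23 and 3.598 against 6.35 and 5.62 CPM, 10.7 and 8.70 against 17.4 and 12.3 CPM, 21.3 and 11.4 against 35.8 and 29.7 CPM and 10.8 and 8.65 against 11.1 and 14.9 CPM in HEK293T, liver bud progenitors, neurons and mESC. Its changes of -1.28 ± 0.30, -0.61 ± 0.21 and -1.01 ± 0.28 were called in the human cells, and -0.41 ± 0.19 was not in mESC. BBS7, another BBSome subunit, was enriched in the human cells, in HEK293T not with library size only. It was at 115 and 114 against 102 and 93.7 CPM, 68.1 and 61.5 against 30.0 and 32.1 CPM and 41.8 and 36.1 against 14.1 and 20.0 CPM, changes of 0.22, 1.06 and 1.19, and mESC at 6.98 and 4.85 against 5.31 and 5.91 CPM showed no called change (0.08 ± 0.24).

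BBS4, which connects the BBSome to centriolar satellites, was at 14.5 and 15.7 against 15.3 and 15.2 CPM in HEK293T and 14.8 and 9.59 against 11.1 and 9.70 CPM in neurons, without a call. It was enriched in liver bud progenitors, at 22.3 and 20.7 against 11.9 and 12.8 CPM (0.80 ± 0.18), and in mESC, at 47.6 and 51.7 against 23.6 and 19.8 CPM (1.19 ± 0.11). BBS5, which binds membrane lipids, was at 9.19 and 10.97 against 5.86 and 4.43 CPM, 3.03 and 3.42 against 3.22 and 2.78 CPM, 7.94 and 12.1 against 5.38 and 6.499 CPM and 2.85 and 1.48 against 0.956 and 1.45 CPM, called in HEK293T only (0.97 ± 0.21). BBS2 gave 25.7 and 26.5 against 26.0 and 26.3 CPM, 19.3 and 18.1 against 14.2 and 21.9 CPM, 40.3 and 30.1 against 54.0 and 46.0 CPM and 6.98 and 5.70 against 6.06 and 5.70 CPM and was called nowhere, although its neuron libraries did not overlap (-0.51 ± 0.18, adjusted p = 0.0552). The locus of BBS2 overlaps OGFOD1 and that of BBS1 overlaps ZDHHC24, each on the opposite strand. BBS10 and BBS12 are chaperonin-like proteins that help to assemble the BBSome. BBS10 was at 59.4 and 55.0 against 48.1 and 41.5 CPM, 26.6 and 21.3 against 18.2 and 12.8 CPM, 10.6 and 8.70 against 12.9 and 12.7 CPM and 15.1 and 13.1 against 8.29 and 10.2 CPM, called enriched in all but neurons (0.35, 0.64, 0.61 and, not called, -0.41). BBS12 stood at 23.6 and 24.7 against 16.6 and 16.0 CPM, 4.37 and 4.56 against 4.98 and 4.17 CPM, 6.29 and 4.55 against 5.10 and 3.80 CPM and 6.10 and 5.80 against 5.21 and 5.80 CPM, called in HEK293T only (0.56 ± 0.14).

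Calls recurred across cell types. In all 3 human cell types 21 of 58 members were enriched, beside 8.44% of the 21461 genes tested in each, and 5 were depleted (BBS1, CEP170B, CEP250, IFT122 and IFT172), beside 5.77%. Adding mESC left 17 enriched, of which 15 were CEP genes and the others IFT74 and IFT81, and 2 depleted, CEP170B and IFT172. For HEK293T and mESC, which share the library type but not the species, 23 of 57 symbols were enriched in both, beside 18% of 12670 matched symbols, and 3 were depleted in both (CEP164, CEP170B and IFT172), beside 13.1%. These shares over all genes were not taken above a level, and calls are rarer among genes with few reads. Spearman's rho of the log2 changes over the members was 0.63 to 0.76 for the 6 pairs of cell types, as a description over 57 or 58 genes. CEP72, CEP85, IFT22 and IFT46 were called in opposite directions in different cell types, and BBS2, CEP19, CEP89, CEP170P1 and IFT88 were called in none. CEP152, CEP192 and BBS7 were enriched in the human cells and had mESC changes of 0.04, 0.09 and 0.08, a difference between species and lines that was not tested.

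Neurons and liver bud progenitors came from the same stem cell line and the same library type, so the difference between their P-body enrichments was tested directly. It was called for 16 of 58 members, and the median difference (neuron minus liver bud progenitor) was 0.33 over the members and 0.23 over all genes. For 10 members, all CEP genes, enrichment was higher in neurons, beside 9.21% of all 22268 genes, and for 6 members (IFT22, IFT46, IFT52, IFT80, BBS10 and CEP41) it was higher in liver bud progenitors, beside 8.5%. At a mean of at least 10 CPM these were 10 and 5 of 46 members, beside 15.9% and 18.4% of all genes. The median difference at that level was 0.34 over the members and -0.09 over all genes. The split moved with the scaling, from 10 and 6 to 21 and 3 with library size only and 13 and 4 with filterByExpr, and the 6 became 2 without the second liver bud progenitor P-body or cytoplasm library and 11 or 10 without the first or the second neuron P-body library. CEP135 differed by 1.47 ± 0.18 (neuron minus liver bud progenitor, log2; adjusted p = 3.37e-05) and CEP152 by 1.41 ± 0.21 (adjusted p = 0.000258). CEP128, of the subdistal appendages, differed by 1.38 ± 0.23, from 44.4 and 43.4 against 35.1 and 35.4 CPM in liver bud progenitors to 27.1 and 32.8 against 8.78 and 9.70 CPM in neurons. CEP85 differed by 0.99 ± 0.19, from 30.5 and 31.3 against 43.9 and 46.9 CPM to 53.7 and 58.4 against 43.2 and 39.3 CPM. Further differences were 0.63 for CEP350, 0.77 for CEP295, which turns new centrioles into centrosomes, 0.83 for CEP97, 0.92 for CEP55 and 0.66 for CEP70.

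Of the members that were more enriched in liver bud progenitors, IFT80 had a difference of -2.48 ± 0.53, which became 0.0039 ± 0.19 with the read-through added and was then not called. CEP41 differed by -1.47 ± 0.35, from 11.8 and 18.1 against 6.30 and 5.57 CPM to 24.3 and 25.4 against 30.4 and 23.7 CPM in neurons, where the fractions overlapped. IFT52 differed by -1.27 ± 0.25 (adjusted p = 0.00200), from 27.7 and 25.7 against 23.7 and 22.5 CPM to 18.9 and 18.1 against 33.9 and 43.1 CPM. IFT46 differed by -0.97 ± 0.23, IFT22, a small GTPase of IFT-B, by -0.92 ± 0.29 and BBS10 by -1.05 ± 0.35 (adjusted p = 0.0477, the highest of the 16). The centriole duplication list had 5 of 12 members called, all higher in neurons. The IFT-B list had 4 of 11, all higher in liver bud progenitors, among them IFT80, whose call was lost with the read-through added. Over all genes 9.21% were higher in neurons and 8.5% in liver bud progenitors. At a mean of at least 10 CPM the shares were 15.9% and 18.4%.

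**Figure D3:**
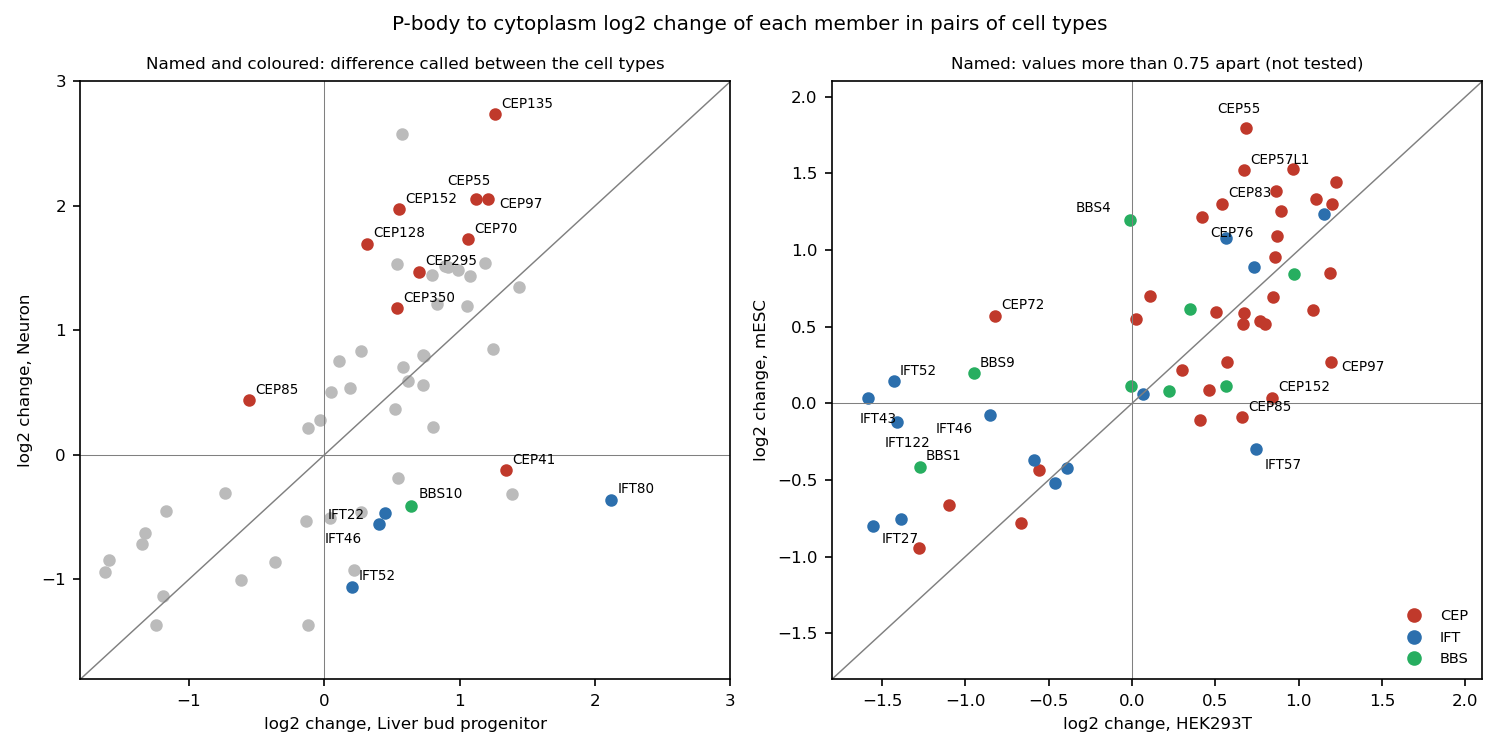
Each point is a member, with its log2 change in liver bud progenitors against neurons (left, coloured and named where edgeR called the difference) and in HEK293T against mESC (right, named where the values lie more than 0.75 apart, without a test), and the line marks equal values. CEP135, CEP152 and CEP128 lie far above the line on the left, and IFT52, CEP41 and IFT80 below it.

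The cytoplasm of the same cells was compared to show the levels from which these values start. More CEP genes were lower than higher in neurons, and more IFT genes were higher than lower. Of 36 CEP genes 20 were higher in liver bud progenitors and 9 in neurons, and of 14 IFT genes 1 and 7 were, or 2 and 7 with the read-through transcript added to IFT80. Over all members 23 were higher in liver bud progenitors and 19 in neurons, beside 25.8% and 26% of all 21900 genes. At a mean of at least 10 CPM these were 21 and 17 of 45 members, beside 36.8% and 44.3% of all genes. In bulk libraries, fewer cells of a type and less RNA per cell cannot be told apart. Of the centriole duplication list, 9 of 12 were higher in liver bud progenitors and none in neurons. CEP70 was lowest in neurons relative to liver bud progenitors, at 9.58 and 7.34 against 46.0 and 47.1 CPM (-2.45 ± 0.17), followed by CEP152 at 9.07 and 10.4 against 41.3 and 41.5 CPM (-2.09 ± 0.17), IFT74 at 4.69 and 7.66 against 22.6 and 23.2 CPM and CEP83 at 5.81 and 6.48 against 23.5 and 22.1 CPM. CEP41 was higher in neurons, at 32.8 and 25.6 against 5.87 and 5.20 CPM (2.40 ± 0.21), as were CEP250 at 94.2 and 77.1 against 18.3 and 25.3 CPM, IFT140 at 30.1 and 25.0 against 6.82 and 7.81 CPM and IFT172 at 33.5 and 26.3 against 9.28 and 8.75 CPM. The P-body values of neurons share the neuron cytoplasm libraries with this comparison, so low cytoplasm and high enrichment are not independent of each other. The CPM here were scaled over the cytoplasm libraries alone and differ slightly from those within each cell type.

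Most human members had coding sequences poor in G and C at the third position. A coding transcript was found for 57 of the 58 human members, all but CEP170P1, and for all 57 mouse members. The median GC3 of the human members was 38.8%, with a range of 28.4% (CEP126) to 82.2% (CEP131), and 60.2% over the 17278 genes (78.9% of those tested in HEK293T) that had a value, so that 12.8% of those lay below the members' median. The median coding length was 2169 against 1353 bases. In mouse the median GC3 was 51.8% against 59.8%, and 22 of 57 members lay below 50%. Across the members, the log2 change fell with GC3 in each cell type. Over 57 members, which share libraries and are not independent, rho (Spearman) was -0.66 for HEK293T, -0.63 for liver bud progenitors, -0.64 for neurons and -0.71 for mESC. Over members with a mean of at least 10 CPM it was -0.53, -0.61, -0.71 and -0.68. Over all genes at that level it was -0.51, -0.64, -0.65 and -0.61, and the relation thus also ran across the other genes. With GC content of the whole transcript in place of GC3, rho over the 57 members was -0.68, -0.79, -0.68 and -0.81. Coding length gave rho of -0.23 to 0.16 over the members.

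**Figure D4:**
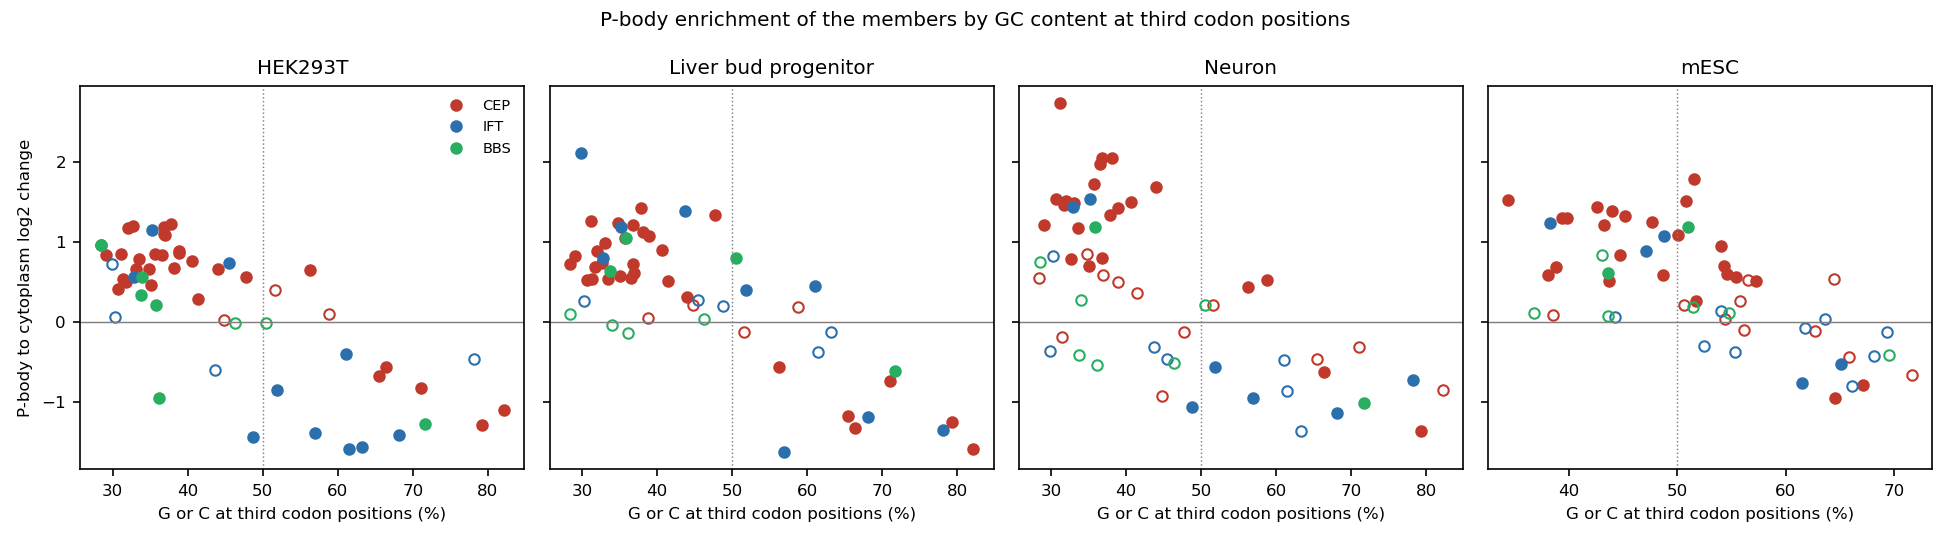
P-body to cytoplasm log2 change of each member against the percentage of its codons with G or C at the third position, by cell type, with filled points where edgeR called the change and a dotted line at 50%. Points left of the line lie mostly above 0, and human members beyond 60% lie mostly below 0.

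Among the 39 human members with GC3 below 50%, 32 were enriched and 2 depleted in HEK293T, 30 and 0 in liver bud progenitors and 21 and 1 in neurons. Among the 18 with at least 50%, 2 were enriched and 12 depleted, 3 and 10, and 3 and 7. In mESC 17 of 22 members below 50% were enriched and 0 depleted, and of the 35 at 50% or more 10 were enriched and 4 depleted. For comparison at one level of expression, of members with GC3 below 50% and at least 10 CPM, 93.9% were enriched for HEK293T, 87.9% for liver bud progenitors, 70.0% for neurons and 88.9% for mESC, beside 66.3%, 77.4%, 54.8% and 82.9% of all genes in that range. At a GC3 of 50% or more the shares were 20.0%, 25.0%, 21.4% and 43.5% beside 25.9%, 23.7%, 10.2% and 33.4%. The paralogues CEP170 (GC3 32.7%) and CEP170B (79.3%) lay on opposite sides in sequence as in P-body change. IFT172 (56.9%), IFT140 (78.2%), IFT122 (68.2%), BBS1 (71.7%), CEP250 (66.4%) and CEP164 (65.5%) were among the depleted members with a high share, and IFT52 (48.7%) was depleted in HEK293T and neurons at a middling one.

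Genes of the same structures under other names were counted beside the members. Of 82 such genes tested in the human cells, 41 were enriched and 22 depleted in HEK293T, 45 and 14 in liver bud progenitors and 30 and 12 in neurons, and 35 and 8 of 78 in mESC. Over all genes tested, 19.3% were enriched and 22.8% depleted in HEK293T and 21.4% and 17.1% in liver bud progenitors. The shares were 14.6% and 14.1% in neurons and 25.8% and 20.6% in mESC. At a mean of at least 10 CPM, 44.2% of all genes were enriched and 38.3% depleted in HEK293T. Liver bud progenitors had 47.2% and 27.8%, neurons 27% and 33% and mESC 47.8% and 24.3%. The counts of the genes under other names were not taken above a level. The 30 centriole and centrosome genes had 20 enriched and 3 depleted in HEK293T, 20 and 7 in liver bud progenitors and 18 and 3 in neurons, and 18 and 4 of 29 in mESC. PLK4, the kinase that starts duplication, had log2 changes of 1.00, 1.35, 2.66 and 1.79 in HEK293T, liver bud progenitors, neurons and mESC, and SASS6, the cartwheel protein, 1.03, 1.23, 2.52 and 1.32. TUBG1, the gamma-tubulin that nucleates microtubules, was depleted with -1.16, -0.58, -0.53 and -0.69. PCNT, a large matrix protein, was also depleted, with -0.75, -0.72, -0.94 and -0.52. IFT subunits under other names had 5 enriched and 3 depleted of 11 in HEK293T, 3 and 1 in liver bud progenitors and 3 and 3 in neurons. Of 11 IFT motor genes 4 and 6, 7 and 2, and 2 and 3 were called. Of the 24 transition zone genes 8 and 10, 9 and 4, and 6 and 3 were. BBSome genes under other names had 4, 6 and 1 of 6 enriched and none depleted. In mESC the enriched and depleted counts were 3 and 0 of 8 for the IFT subunits, 3 and 2 of 11 for the motors and 8 and 2 of 24 for the transition zone. For the BBSome genes under other names they were 3 and 0 of 6.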

How the data were processed

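The values are whole-number counts of reads by gene symbol, as the authors deposited them, for human (hg38) and mouse (mm10). They were made per the study's methods for total RNA libraries with a salmon-based pipeline and refGene, and for Smart-seq with an aligner and counter. Which of these made the polyA columns is not given in the sources used here. No gene summed to fewer than 10 counts. The deposited tables of the authors' own DESeq2 fold changes and adjusted p-values were not used. The members and gene lists were chosen with earlier results of these data known.

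Groups came from the labels. The paper describes the replicates of its sequencing assays as biological, but nothing in the labels says that they were separate cultures. The p-values thus measure the spread between these libraries, which may be technical. A chi-square of replicate counts exceeded sampling noise in every group (2.00 to 21.1 per gene). Genes with 0 counts in all libraries of a comparison were left out, counts were normalized by TMM and tested two-sided by quasi-likelihood in edgeR 4.0.16 (R 4.3.3), and p-values were adjusted over all genes by Benjamini-Hochberg (threshold 0.05). Each fraction comparison used 4 libraries, the difference between neurons and liver bud progenitors 8. The standard error of a log2 change is its size over the square root of F. CPM are scaled by TMM within a comparison. The standard errors include the spread between libraries that the fit estimated, and the floors cover counting error only. The method was tested on simulated counts. The fits were repeated with RLE size factors, with library size only, with filterByExpr, with no filter, with ribosomal RNA genes left out, with DESeq2 1.42.0, with the replicate number as a block, all human libraries in a single fit and without each library in turn, and, added after seeing the data, crossed replicate numbers in HEK293T and IFT80 summed with TRIM59-IFT80. Library values are given for a fixed set of 21 members and, per comparison, for the 4 called members with the highest and the 4 with the lowest change at a mean of at least 10 CPM. Members whose enrichment differed between neurons and liver bud progenitors are named. Counts cover all members, but some single genes are not reported here and are left out of the figures and of the recomputed single values. GC content, length and positions came from the longest coding transcript in GENCODE 44 and M21. In GENCODE 44, 28 human members overlap another gene of the table, 3 of them on the same strand. Whether strand was used in counting is not given in the sources used here, so reads of such pairs cannot be told apart.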

Additional observations from a re-analysis of the deposited data

Results flagged for a closer look

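For 16 members the P-body enrichment in neurons differed from that in liver bud progenitors by the direct test of the difference (edgeR, adjusted p under 0.05). Values are neuron minus liver bud progenitor on the log2 scale. Among those higher in neurons were CEP135 (1.47), CEP152 (1.41), CEP128 (1.38), CEP85 (0.99), CEP55 (0.92), CEP97 (0.83), CEP295 (0.77), CEP70 (0.66) and CEP350 (0.63). CEP85 was depleted in liver bud progenitors, and the other 8 named were enriched in both cell types. Higher in liver bud progenitors were IFT80 (-2.48), CEP41 (-1.47), IFT52 (-1.27), BBS10 (-1.05), IFT46 (-0.97) and IFT22 (-0.92). IFT80 lost its call when its reads were added to those of the read-through transcript.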

How the results depend on the processing

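Over the members reported singly and all comparisons, 3930 of 4321 recomputed log2 changes kept their direction and their side of the threshold, 177 called values lost the call with the same sign, 87 gained one, 119 uncalled values changed sign, and 8 changed sign where the value or its recomputation was called. With library size only these were Cep192 (-0.31), Cep97 (-0.13) and Ift52 (-0.26) in mESC and CEP68 (-0.036) and CEP85 (-0.32) in the cytoplasm comparison, where the median of all genes moved by -0.40 and -0.38. It moved by 0.36 in the difference of neurons and liver bud progenitors, by -0.13 in HEK293T, -0.19 in liver bud progenitors and 0.16 in neurons. With the read-through added, IFT80 became 1.46 in neurons, 0.0039 in the difference and -1.89 in the cytoplasm comparison. Depleted members in neurons numbered 5 with library size only, DESeq2 and filterByExpr and 15 in the single human fit, beside 8, and in mESC 16 with library size only, beside 4. For the difference, library size only gave 21 higher in neurons and 3 in liver bud progenitors, beside 10 and 6.

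Leaving out each library, with the lone library assumed to vary like the others, gave 30 to 35 enriched and 11 to 14 depleted members in HEK293T, 28 to 30 and 8 to 10 in liver bud progenitors, 21 to 28 and 2 to 10 in neurons and 24 to 27 and 3 to 5 in mESC. Depleted members in neurons fell to 2 and 5 without the first and the second cytoplasm library. The difference ranged over 8 to 15 and 2 to 11, the cytoplasm comparison over 16 to 18 and 22 to 24. Deviations of same-numbered libraries correlated with r between -0.16 and 0.12, so they shared little deviation. Such a correlation cannot tell whether same-numbered libraries came from the same preparation. The replicate block gave 35 and 14 in HEK293T, 33 and 10, 25 and 9, 28 and 5, 13 and 6 for the difference and 17 and 23 for the cytoplasm. In HEK293T the crossed numbers also gave 35 and 14. Members at a few CPM, such as IFT20, IFT27, IFT88 and CEP131, rest on few reads, and a missing call for them is no measure of an absent change.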
